A study of Mus musculus with 4 samples.

Results

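The photoreceptor transcription factors described here are Nrl, Crx, Nr2e3, Otx2, Rorb, Thrb, Neurod1, Mef2d, Esrrb and Rxrg, followed through full-length transcripts in 6 cell classes of the mouse retina. They were chosen by name, not by a rule on their values, though earlier results of these data were known. They were looked up in the deposited isoform table by their Ensembl gene identifiers. All 10 genes were found, among 13452 Ensembl genes, with 38 isoforms of 44325 and 178226 of the 149645836 counts. The libraries were made from dissociated retinas of mice of the inbred strain C57BL6/J, all male and wild-type. Of the 4 single-cell libraries, 2 had no enrichment, 1 from postnatal day 40 and 1 with no age among its labels. The others carry the labels CD73 enrichment, from postnatal week 8, and CD90.2 enrichment, from postnatal month 4, and the protocol describes depletion of CD73-positive cells, a photoreceptor surface protein, and positive selection on CD90.2, a neuronal one. Single-cell cDNA was read end to end on a nanopore instrument, and the counts were deposited for 6 classes: amacrine cells, bipolar cells, cones, Müller glia, rods and retinal ganglion cells. The columns do not separate the libraries, so no class has a replicate, no test between classes was made, and enrichment and age cannot be told apart from class.

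Rods and cones arise from one kind of retinal precursor, in which Otx2 switches on Crx, the homeodomain activator shared by both photoreceptors. Rorb acts upstream of Nrl, a basic leucine zipper protein of the Maf family that directs precursors to the rod fate, and Nrl in turn activates Nr2e3, a nuclear receptor that represses cone genes. Precursors without Nrl become cones, where a cone-type thyroid hormone receptor made from Thrb, together with Rxrg, sets which opsin is used; Neurod1, Mef2d and Esrrb act in the maturing photoreceptor.

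Column totals, the depth behind each value, were 55437340 counts in rods and 7307134 in cones, and, among the other classes, 48248340 in amacrine cells, 29010038 in bipolar cells, 6133094 in Müller glia and 3509890 in ganglion cells. Levels are counts scaled to a column total of 1000000 (CPM), with exact Poisson 95% intervals. For a count of 0 a limit of 3 counts was used, or 0.0541 CPM in rods and 0.855 CPM in ganglion cells. The exact interval of a 0 reaches further, to 1.05 CPM in ganglion cells. Shares have exact Clopper-Pearson intervals and ratios exact conditional intervals. Intervals on counts cover counting error only, and several reads can come from 1 molecule. Of 6 marker genes for each class, all 6 were highest in their own column in every class.

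Several of the factors differ between classes in where their transcripts begin, and the sequences that carry this difference are shown first. Rorb, on the minus strand of chromosome 19 (chr19:18930605-19111196, GRCm38), has a far upstream exon at chr19:19110552-19111196 and an internal exon at chr19:19001007-19001111, each with its own start codon. In capitals are the coding bases of the exon with the start codon, in lower case the first 30 bases of the exon both splice to; the far exon opens a protein of 459 amino acids and the internal exon one of 470.
Rorb-203, far exon: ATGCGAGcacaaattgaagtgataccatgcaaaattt
Rorb-201, internal exon: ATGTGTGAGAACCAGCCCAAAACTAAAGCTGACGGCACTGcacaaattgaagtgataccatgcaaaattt
Thrb, on the plus strand of chromosome 14 (chr14:17660261-18038090), likewise has an exon at chr14:17981637-17982201 that starts the cone-type receptor, Thrb-202, of 475 amino acids. The longer route through the upstream exons gives Thrb-203, of 461 amino acids. Shown are the last 150 of the 325 coding bases of the first, all 22 coding bases of the second, and the start of the next exon of each in lower case.
Thrb-202, cone-type exon: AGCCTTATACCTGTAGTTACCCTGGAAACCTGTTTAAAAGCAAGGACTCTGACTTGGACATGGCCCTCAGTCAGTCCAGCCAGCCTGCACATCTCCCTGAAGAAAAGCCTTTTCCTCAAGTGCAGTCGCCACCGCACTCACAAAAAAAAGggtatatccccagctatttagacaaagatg
Thrb-203, upstream exon: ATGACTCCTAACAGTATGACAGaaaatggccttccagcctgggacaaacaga
All coordinates are on GRCm38. Gene spans and transcript names are those of GENCODE M21, which holds 81 of the 85 distinct introns of these genes' models; the outer ends of first and last exons are those of the deposited models and can differ from the M21 ends.

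Taken by level, 9 of the 10 genes had their highest CPM in rods or cones, where 32.4% of the 12654 genes with at least 20 counts did. The exception was Otx2, highest in bipolar cells. Rods led for Nrl, Nr2e3, Crx, Rorb and Esrrb, and cones for Neurod1, Rxrg, Thrb and Mef2d. The leading class was the same for all 10 genes when the columns were scaled by trimmed means (TMM) or by median ratios in place of the total.

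**Figure D1:**
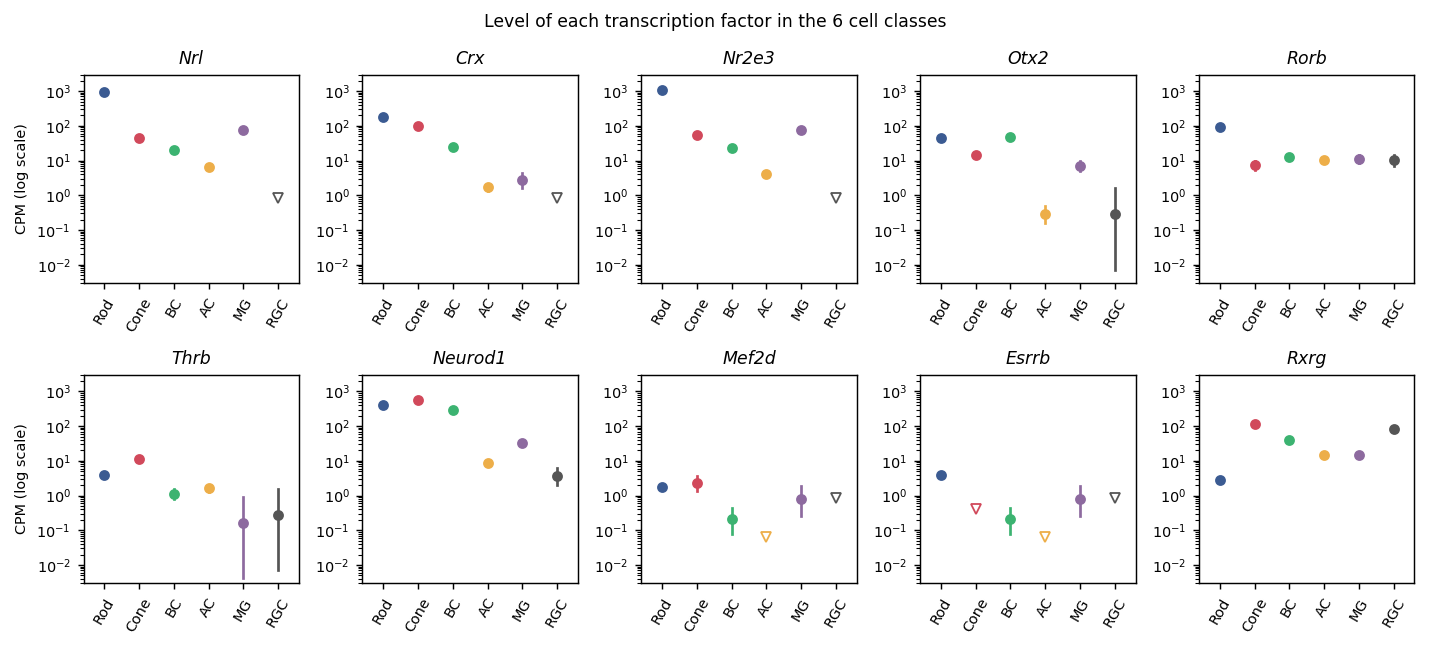
Level of each of the 10 genes in the 6 columns (AC amacrine, BC bipolar, MG Müller glia, RGC ganglion cells), in CPM on a log axis; points are levels, bars exact Poisson 95% intervals, and open triangles mark the 3-count limit where the count was 0. Nrl and Nr2e3 stand at 954 and 1094 CPM in rods, with every other column at or below 75.2 CPM, whereas Rxrg is lowest in rods.

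Nrl and Nr2e3, the rod-determining pair, had nearly the same distribution. Nrl was at 954 CPM in rods (95% interval 946 to 962), 75.0 in Müller glia, 43.2 in cones, 19.5 in bipolar cells, 6.40 in amacrine cells and 0 counts in ganglion cells. Nr2e3 was at 1094 CPM in rods (1085 to 1103), 75.2 in Müller glia, 56.0 in cones, 22.3 in bipolar cells, 4.06 in amacrine cells and 0 counts in ganglion cells. Rods held 86.9% of the summed CPM of Nrl and 87.4% of that of Nr2e3, and the intervals of the 5 columns with counts did not overlap for either gene.

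Rods were above cones 22.1-fold for Nrl (95% interval 19.7 to 24.7) and 19.5-fold for Nr2e3 (17.7 to 21.6). Rod marker RNA was also counted outside rods, and its levels are given beside those of both genes. As a percentage of the rod level, Nrl was at 7.86% in Müller glia, 4.53% in cones, 2.04% in bipolar cells and 0.671% in amacrine cells. Nr2e3 was at 6.87%, 5.12%, 2.04% and 0.371% in the same order. The 5 rod phototransduction genes Gnat1, Pde6g, Pde6b, Cnga1 and Sag were at 0.984% to 10.6% of their rod level in Müller glia, 2.53% to 55.5% in cones, 1.54% to 2.72% in bipolar cells and 0.575% to 0.969% in amacrine cells. Summed, these 5 were at 42534 CPM in rods, 20428 in cones, 4106 in Müller glia, 1077 in bipolar cells and 267 in amacrine cells. In ganglion cells all 5 were at 0 counts, as were Nrl and Nr2e3. The part of rod RNA in the other columns' values was not tested.

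Crx and Otx2, the paired-type homeodomain activators, were both counted in bipolar cells, at different levels. Crx was at 182 CPM in rods (95% interval 179 to 186), 98.9 in cones (91.9 to 106), 24.5 in bipolar cells (22.7 to 26.3), 2.77 in Müller glia, 1.72 in amacrine cells, with 0 counts in ganglion cells. Rods exceeded cones by 1.84-fold (1.71 to 1.99), under the 2-fold rule, and bipolar cells by 7.45-fold (6.90 to 8.05). Bipolar cells had 13.4% of the rod level of Crx, and 1.54% to 2.72% of that of the 5 phototransduction genes. Other rod genes varied more widely. In bipolar cells and rods, Cngb1 was at 161 and 1168 CPM, Gngt1 at 6378 and 44574, and Pde6a at 2.65 and 126. The part of rod RNA in the bipolar value of Crx was not tested.

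Otx2 was at 48.3 CPM in bipolar cells (95% interval 45.8 to 50.9), 43.4 in rods (41.7 to 45.2), 14.1 in cones, 7.01 in Müller glia, 0.290 in amacrine cells and, from 1 count, 0.285 in ganglion cells. The bipolar and rod intervals did not overlap, but the ratio of rods to bipolar cells was close to even, at 0.899 (0.842 to 0.961). Cones were 3.42-fold below bipolar cells (2.80 to 4.22) and 3.08-fold below rods (2.53 to 3.79). Of the 9 genes with at least 20 counts in cones and bipolar cells together, only Otx2 was at least 2-fold lower in cones. Esrrb, with 0 counts in cones and 6 in bipolar cells, was not judged.

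Neurod1, a basic helix-loop-helix activator, was high in all 3 of these classes. It was at 561 CPM in cones (95% interval 544 to 578), 404 in rods (398 to 409), 292 in bipolar cells (286 to 298), and far lower elsewhere, with 32.1 in Müller glia and less than 10 in both amacrine (8.44) and ganglion cells (3.70). The 3 highest levels lay within 2-fold of each other, with cones 1.39-fold above rods (1.34 to 1.44) and 1.92-fold above bipolar cells (1.85 to 1.99). With TMM or median-ratio scaling, the last ratio passed 2-fold.

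Rorb, an orphan nuclear receptor, was at 92.1 CPM in rods (95% interval 89.6 to 94.6) and at a low level everywhere else, with 12.7 CPM in bipolar cells, 11.3 in Müller glia, 10.3 in ganglion cells, 10.1 in amacrine cells and 7.25 in cones. Rods were 12.7-fold above cones (9.69 to 17.0). Among the 5 lower columns, the interval of bipolar cells lay above those of amacrine cells and cones, and all other pairs overlapped. The order of bipolar cells, Müller glia, ganglion cells and amacrine cells changed with the scaling, and cones stayed lowest. Unlike Nrl and Nr2e3, Rorb was found in ganglion cells, with 36 counts.

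Esrrb, an estrogen-related receptor that supports rod survival, had 211 of its 222 counts in rods, at 3.81 CPM (95% interval 3.31 to 4.36). The other columns had 6 counts in bipolar cells, 5 in Müller glia and 0 in cones, amacrine and ganglion cells. By the exact interval, rods were at least 7.47-fold above cones, and the ratio against the limit of 3 counts in the cone column was 9.27. Rods were 18.4-fold above bipolar cells (8.32 to 50.7).

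Thrb and Rxrg, nuclear receptors that pair on DNA, both led in cones. Thrb was at 11.4 CPM in cones (95% interval 9.05 to 14.1), 3.95 in rods (3.44 to 4.51), 1.64 in amacrine cells, 1.14 in bipolar cells, 0.285 in ganglion cells and 0.163 in Müller glia, the last of these from 1 count each. Cones were 2.88-fold above rods (2.21 to 3.72) and 9.99-fold above bipolar cells (6.60 to 15.4). The intervals of amacrine and bipolar cells overlapped.

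Rxrg was at 116 CPM in cones (95% interval 108 to 124), 85.2 in ganglion cells (75.8 to 95.4), 40.2 in bipolar cells, 15.2 in Müller glia and 15.1 in amacrine cells, and at its lowest in rods, with 2.76 (2.34 to 3.23). Cones were 42.0-fold above rods (35.3 to 50.2) and 2.88-fold above bipolar cells (2.63 to 3.15). The next lowest levels, of Müller glia and amacrine cells, were 5.49-fold and 5.47-fold above rods, and their intervals overlapped.

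Mef2d, a MADS-box activator found in many tissues, was sparse here, with 128 counts. It was at 2.33 CPM in cones from 17 counts (95% interval 1.36 to 3.72), 1.80 in rods from 100 counts (1.47 to 2.19), 0.815 in Müller glia, 0.207 in bipolar cells and 0 counts in amacrine and ganglion cells. Cones and rods were indistinguishable at this depth, with a ratio of rods to cones of 0.775 (0.461 to 1.38). Rods were 8.72-fold above bipolar cells (3.87 to 24.3).

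Set against all genes, the 10 factors divided between rods and cones and stood mostly above bipolar cells. Between rods and cones, 5 of 10 were at least 2-fold higher in rods (Nrl, Nr2e3, Rorb, Esrrb and Otx2), where 32% of 9993 genes were, and 2 (Rxrg and Thrb) were at least 2-fold lower, where 10.4% were. Their median log2 ratio was 1.25, and that of all genes 0.45. Against bipolar cells, 7 of 10 were at least 2-fold higher in rods (29% of 10930 genes) and 1, Rxrg, was lower (23.5%). The median log2 ratio of rods to bipolar cells was 2.88 for the 10 genes and 0.20 for all genes.

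From cones to bipolar cells, 6 of the 9 genes with at least 20 counts in these columns were at least 2-fold higher in cones (13.8% of 9439 genes) and 1 was lower (29.3%). The 6 were Mef2d at 11.2-fold (95% interval 4.23 to 34.8), Thrb, Crx at 4.04-fold (3.64 to 4.49), Rxrg, Nr2e3 at 2.51-fold and Nrl at 2.22-fold. Of the 5 rod phototransduction genes, all were also higher in cones than in bipolar cells, from Pde6b, at 13.1 and 8.72 CPM, to Sag, at 5351 and 216 CPM. In a longer list of rod target genes, 13 had at least 20 counts in these columns. Of these, 10 were at least 2-fold higher in cones and 1, Cngb1, was lower, at 57.6 and 161 CPM. The median log2 ratio of cones to bipolar cells was 1.33 for the 9 genes and -0.28 for all genes.

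**Figure D2:**
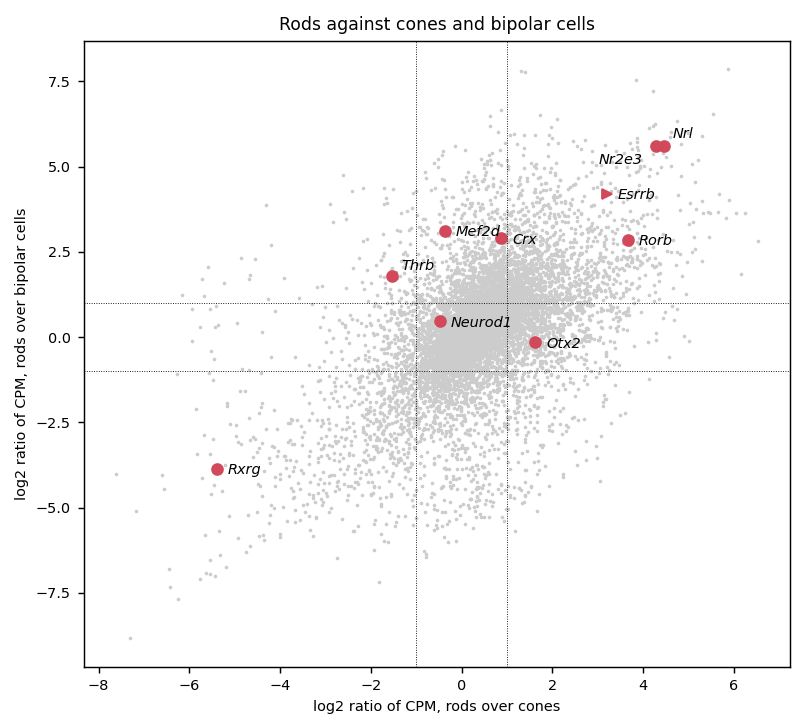
Each point is a gene, placed by its log2 ratio of CPM in rods over cones (horizontal axis) and in rods over bipolar cells (vertical axis); the 10 factors are in red and labelled, other genes with counts in all 3 columns in grey, and dotted lines mark 2-fold. Esrrb is drawn as a triangle at its rod-to-cone ratio against the limit of 3 counts, since its cone count was 0. Nrl and Nr2e3 lie together at the upper right, and Rxrg alone lies at the lower left, at -5.39 and -3.86.

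The most distinct isoform pattern was that of Rorb, in which the exon that opened the transcript, of those shown above, differed between classes. The far exon, known to start the form RORbeta1, opened 36 of 36 Rorb counts in ganglion cells (100%, 95% interval 90.3 to 100) and 449 of 489 in amacrine cells (91.8%, 89.0 to 94.1). In rods it opened 35 of 5105 (0.686%, 0.478 to 0.952), and the internal exon, known to start RORbeta2, opened the other 5070. Bipolar cells with 210 of 369 (56.9%, 51.7 to 62.0), cones with 28 of 53 (52.8%, 38.6 to 66.7) and Müller glia with 30 of 69 (43.5%, 31.6 to 56.0) lay between these extremes, with overlapping intervals.

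The internal exon was used by both Rorb-201 and Rorb-202, which differ by an exon of 53 bases, chr19:18994268-18994320, present in Rorb-202 alone. Because 53 is not a multiple of 3 and the exon lies after the start codon of Rorb-201, the annotation gives Rorb-202 a later start codon and a protein of 385 amino acids. This exon was in 1600 of 5105 counts in rods (31.3%, 95% interval 30.1 to 32.6), 79 of 369 in bipolar cells (21.4%, 17.3 to 26.0), 9 of 53 in cones (17.0%, 8.07 to 29.8), 3 of 69 in Müller glia, 13 of 489 in amacrine cells (2.66%) and 0 of 36 in ganglion cells.

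The bases just upstream of each RefSeq start of Rorb, at the far and the internal exon, are shown because the start used differed between classes. Capitals mark any match, on either strand, to TAATCC (bound by Crx and Otx2), TGCTGA (core of Maf sites), AGGTCA (core of nuclear receptor sites) or CANNTG (the E-box of basic helix-loop-helix factors). The printed matches do not overlap each other.
Upstream of the far exon, chr19:19111197-19111446, minus strand: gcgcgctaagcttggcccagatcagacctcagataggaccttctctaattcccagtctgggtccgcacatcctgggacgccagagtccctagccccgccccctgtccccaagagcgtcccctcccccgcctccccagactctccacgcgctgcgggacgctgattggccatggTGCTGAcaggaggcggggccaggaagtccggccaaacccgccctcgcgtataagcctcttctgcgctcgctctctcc
Upstream of the internal exon, chr19:19001118-19001367, minus strand: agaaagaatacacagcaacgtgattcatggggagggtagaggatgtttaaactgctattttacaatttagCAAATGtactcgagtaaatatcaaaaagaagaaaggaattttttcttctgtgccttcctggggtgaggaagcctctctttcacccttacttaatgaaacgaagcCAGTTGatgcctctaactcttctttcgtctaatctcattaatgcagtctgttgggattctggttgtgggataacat
The far stretch held 1 TGCTGA and no other match, and the internal stretch held 2 E-boxes and no other match. Of 32851 RefSeq promoter stretches of this length, 16.1% held TGCTGA and 66.2% an E-box.

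By a rule of size, a gene counted as switched where a pair of classes, each holding 20 or more counts of it, had different leading isoforms and the share of one of these differed by 50 percentage points or more. Of the 6 genes that could be judged, Rorb, Rxrg and Thrb were switched, where 25% of 7317 genes were. Rorb was switched in 5 pairs, among them rods against amacrine cells (91.1 percentage points), rods against bipolar cells (56.2) and rods against cones (52.1). Nrl, Nr2e3 and Otx2 were not switched in any pair; Crx and Neurod1 have 1 isoform each, and Mef2d and Esrrb had too few counts outside rods.

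**Figure D3:**
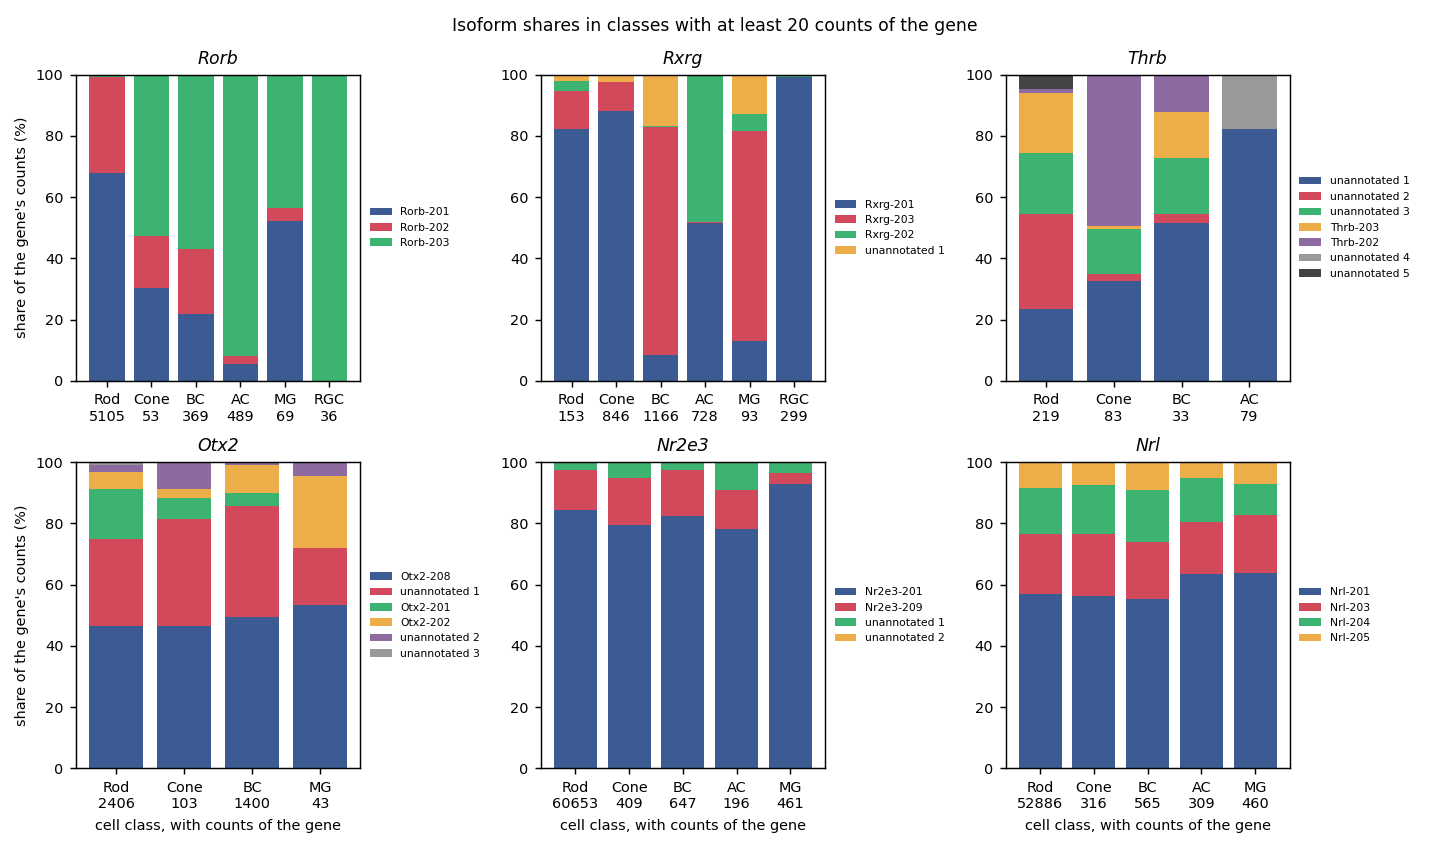
Share of each isoform in the counts of its gene (vertical axis, percent) for Rorb, Rxrg, Thrb, Otx2, Nr2e3 and Nrl, in columns with at least 20 counts of the gene, whose number stands under each bar. Rorb runs from 0.686% Rorb-203 in rods to 100% in ganglion cells and Rxrg-203 from 0% in ganglion cells to 74.3% in bipolar cells, whereas the bars of Nrl differ little between columns.

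Rxrg was switched in 8 pairs, each setting bipolar cells or Müller glia against a class rich in Rxrg-201. Rxrg-201 opens with an exon at chr1:167598384-167598800, and in Rxrg-203 bases 167598653 to 167598694 of that exon are removed as an intron of 42 bases. Rxrg-201 made up 297 of 299 counts in ganglion cells (99.3%, 95% interval 97.6 to 99.9), 745 of 846 in cones (88.1%) and 126 of 153 in rods (82.4%, 75.4 to 88.0). In bipolar cells it was 100 of 1166 (8.58%, 7.03 to 10.3) and in Müller glia 12 of 93 (12.9%, 6.85 to 21.5).

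In bipolar cells Rxrg-203 made up 866 of the 1166 counts (74.3%), and an unannotated isoform whose intron ends 4 bases later, with a length of 46 bases, another 197 (16.9%). Together these spliced forms held 1063 of 1166 counts in bipolar cells (91.2%, 95% interval 89.4 to 92.7), 76 of 93 in Müller glia (81.7%, 72.4 to 89.0), 22 of 153 in rods (14.4%), 101 of 846 in cones (11.9%), 1 of 728 in amacrine cells and 0 of 299 in ganglion cells. The removed bases lie in the 5′ untranslated region, and both Rxrg-201 and Rxrg-203 encode 463 amino acids. The gap is unusually short for an intron: 8 of the 122601 distinct introns in the deposited models (0.00653%) were 50 bases or less, and the median was 1507 bases.

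Amacrine cells used a further start of Rxrg. Rxrg-202 opens with an exon at chr1:167618093-167618495, inside the gene, and is annotated with 340 amino acids. It made up 351 of 728 counts in amacrine cells (48.2%, 95% interval 44.5 to 51.9), and in the other columns 5 of 93 in Müller glia, 5 of 153 in rods, 3 of 1166 in bipolar cells, 2 of 299 in ganglion cells and 0 of 846 in cones. Horizontal cells have no column. Of 6 genes listed as their markers, 4 were measured. These summed to 346 CPM in the amacrine column and 12.1 to 47.0 CPM in each of the others. Among them, Onecut1 was at 0.0622 CPM in the amacrine column and highest in bipolar cells, at 1.52. Onecut2 was at 0.725 CPM in the amacrine column and highest in cones, at 2.19. Also, 1 of the 4, Tfap2b, is on the amacrine marker list. The part of horizontal cells in the amacrine values was not tested.

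**Figure D4:**
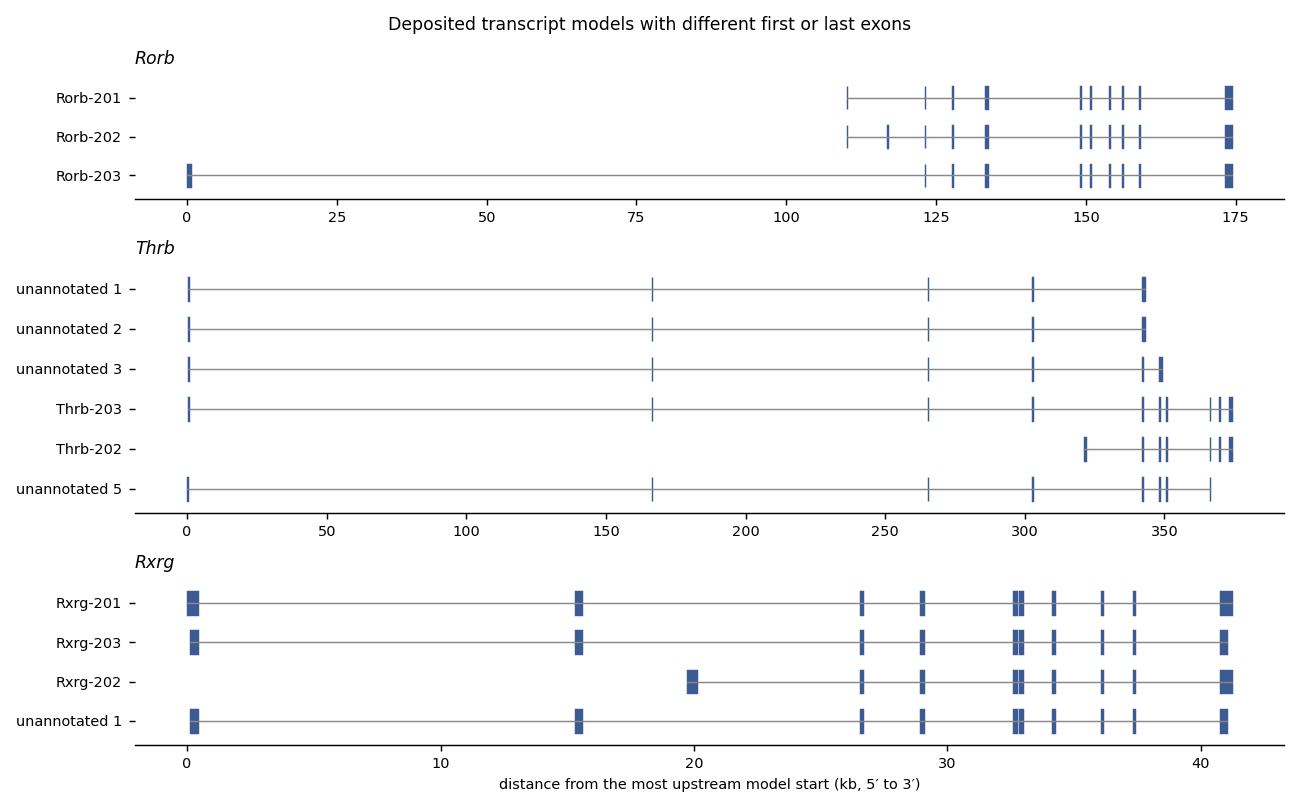
Deposited transcript models of Rorb, Thrb and Rxrg, 5′ to 3′ from left to right, by distance in kb from the most upstream start of the gene's models; boxes are exons, drawn to scale with a minimum line width, and thin lines introns. Rorb-201 and Rorb-202 share an internal start, Thrb-202 starts late and reaches the distal end, unannotated Thrb models 1 to 3 start upstream and stop early, and Rxrg-202 starts inside the gene.

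Thrb showed its cone-type receptor in cones. Thrb-202, whose exon is printed above, made up 41 of the 83 Thrb counts in cones (49.4%, 95% interval 38.2 to 60.6), 3 of 219 in rods (1.37%, 0.283 to 3.95), 4 of 33 in bipolar cells (12.1%, 3.40 to 28.2) and 0 of 79 in amacrine cells. Thrb-203, the other annotated form, had 43 counts in rods, 5 in bipolar cells and 1 in cones. The 2 annotated forms were also the ones reaching the distal last exon at chr14:18033425-18034688, with 42 of 83 counts in cones (50.6%, 39.4 to 61.8) and 46 of 219 in rods (21.0%, 15.8 to 27.0).

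Most other Thrb counts came from models that start at the upstream exon, chr14:17660896-17661024, and stop early. A pair of unannotated models of 5 exons, ending at base 18003480, held 119 of 219 counts in rods (54.3%, 95% interval 47.5 to 61.1), 29 of 83 in cones (34.9%, 24.8 to 46.2) and 65 of the 79 counts in amacrine cells. The remaining 14 amacrine counts belonged to an isoform with no deposited model; it was also the only isoform of the 10 genes with a rod count of 0. Another, of 6 exons and ending at base 18009483, held 44 counts in rods, 12 in cones and 6 in bipolar cells.

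The pair of 5-exon models differ by an alternative 5′ splice site that adds 7 bases of untranslated sequence, chr14:17826969-17826975. Over all models that cross it, the 7 bases were in 112 of 216 counts in rods (51.9%, 95% interval 45.0 to 58.7), 14 of 42 in cones (33.3%, 19.6 to 49.5), 7 of 29 in bipolar cells and 0 of 65 in amacrine cells, which allows up to 5.52%. This pair supplied the leading isoforms of amacrine cells and rods, between which Thrb counted as switched, by 59.0 percentage points. Those points are the share of the form without the 7 bases, 82.3% in amacrine cells and 23.3% in rods. The form with them was at 0% and 31.1%, so other isoforms took up part of the difference. Where 100 counts were required per class, Thrb could no longer be judged.

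Otx2, on the minus strand of chromosome 14 (chr14:48657677-48673819), was made as 6 isoforms from several starts. Otx2-208 held 47.7% of its counts, an unannotated isoform that joins known introns in a combination absent from M21 31.2%, Otx2-201 11.6% and Otx2-202 6.86%. An upstream 3′ splice site adds 24 coding bases, shown because these separate the Otx2 proteins of 297 and 289 amino acids; capitals mark the added bases, followed by 20 bases both forms share.
Otx2, chr14:48661451-48661474, minus strand: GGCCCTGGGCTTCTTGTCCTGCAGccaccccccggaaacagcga
The 24 bases were in 645 of 1400 counts in bipolar cells (46.1%, 95% interval 43.4 to 48.7), 892 of 2406 in rods (37.1%, 35.1 to 39.0), 48 of 103 in cones (46.6%, 36.7 to 56.7) and 20 of 43 in Müller glia. The rod and bipolar intervals did not overlap, and the cone interval spanned both.

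Starts of Otx2 also differed in share between rods and bipolar cells. The exon at chr14:48667428-48667518 opened 54.5% of counts in rods (95% interval 52.5 to 56.5) and 59.4% in bipolar cells (56.7 to 61.9). The exon of Otx2-201, chr14:48664979-48665106, opened 391 of 2406 in rods (16.3%, 14.8 to 17.8), 62 of 1400 in bipolar cells (4.43%, 3.41 to 5.64) and 7 of 103 in cones (6.80%, 2.78 to 13.5). The unannotated isoform opens with an exon at chr14:48665265-48665356, which held 28.4% in rods and 36.1% in bipolar cells.

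Nr2e3, on the minus strand of chromosome 9 (chr9:59942771-59960659), was mainly Nr2e3-201, of 395 amino acids, with 51243 of 60653 counts in rods (84.5%, 95% interval 84.2 to 84.8). Its lesser isoforms are shown because each changes the coding part by a length that is not a multiple of 3. Nr2e3-209 keeps an intron of 100 bases, in capitals between 15 bases of each neighbouring exon. An unannotated isoform leaves out an exon of 127 bases, which codes for a zinc finger of the DNA-binding domain.
Nr2e3, kept intron, chr9:59948825-59948924, minus strand: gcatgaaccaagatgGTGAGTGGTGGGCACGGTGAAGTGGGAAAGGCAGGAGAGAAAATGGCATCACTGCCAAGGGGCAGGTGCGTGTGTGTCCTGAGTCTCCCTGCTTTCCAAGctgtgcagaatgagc
Nr2e3, skipped exon, chr9:59949182-59949308, minus strand: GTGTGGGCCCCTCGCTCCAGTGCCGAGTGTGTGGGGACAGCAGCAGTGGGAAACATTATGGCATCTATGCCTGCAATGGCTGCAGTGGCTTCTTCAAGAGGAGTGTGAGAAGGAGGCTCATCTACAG
The intron was kept in 7806 of 60653 counts in rods (12.9%, 95% interval 12.6 to 13.1), 63 of 409 in cones (15.4%, 12.0 to 19.3), 96 of 647 in bipolar cells (14.8%, 12.2 to 17.8), 25 of 196 in amacrine cells (12.8%, 8.43 to 18.3) and 17 of 461 in Müller glia (3.69%, 2.16 to 5.84). Müller glia were thus the one column below the others, outside their intervals. The exon was skipped in 1580 of 60653 counts in rods (2.60%, 2.48 to 2.73), 21 of 409 in cones (5.13%, 3.21 to 7.74), 18 of 196 in amacrine cells (9.18%, 5.53 to 14.1), 16 of 647 in bipolar cells (2.47%) and 16 of 461 in Müller glia (3.47%).

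Nrl, on the minus strand of chromosome 14 (chr14:55518978-55524981), was made as 4 annotated isoforms in steady proportions. In rods Nrl-201 made up 30044 of 52886 counts (56.8%, 95% interval 56.4 to 57.2), Nrl-203 10481 (19.8%), Nrl-204 7845 (14.8%) and Nrl-205 4516 (8.54%). Nrl-201 ranged from 55.2% in bipolar cells to 63.9% in Müller glia (59.3 to 68.3). Nrl-201 and Nrl-203 differ by 20 bases of untranslated sequence at a 3′ splice site and encode the same protein of 237 amino acids, whereas Nrl-204 starts within the gene and is annotated without a protein.

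Crx (chr7:15865947-15879968, minus strand) and Neurod1 (chr2:79452521-79456751, minus strand) had 1 isoform each. Crx-201 encodes 299 amino acids, and its model is 2823 bases long. The model of Neurod1-201 is 366 bases long and ends 2248 bases before the annotated end of the gene, within the coding exon, so the 35549 Neurod1 counts belong to a model that holds only the start of the transcript. Of the 17 RefSeq promoters of the 10 genes, 3 held TAATCC, the site bound by Crx and Otx2, where 6.25% of 32851 promoters did; they belong to Crx, Otx2 and Thrb. That of Crx is shown because it held 2 matches, both on the opposite strand and in capitals here.
Crx, chr7:15879956-15880205, minus strand: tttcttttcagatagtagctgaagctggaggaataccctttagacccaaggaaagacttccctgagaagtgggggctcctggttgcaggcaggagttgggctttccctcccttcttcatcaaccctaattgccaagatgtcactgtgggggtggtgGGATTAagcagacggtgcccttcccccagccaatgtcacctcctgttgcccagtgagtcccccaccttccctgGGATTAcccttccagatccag
TGCTGA was in 4 of the 17, AGGTCA in 2 and an E-box in 11. Of all promoters, 14.0% held AGGTCA.

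Mef2d (chr3:88142372-88172086, plus strand) had 5 isoforms, none of them an Ensembl transcript. Its alternative short exon, known as the beta exon, is in 1 of the 7 M21 transcripts, Mef2d-203, and is shown because most of the counts held it.
Mef2d, chr3:88161781-88161801, plus strand: ACTGAGGACCATTTAGATCTG
The 21 bases, a multiple of 3, were in 73 of 100 counts in rods (73.0%, 95% interval 63.2 to 81.4), 16 of 17 in cones, 6 of 6 in bipolar cells and 0 of 5 in Müller glia. Beyond rods the counts were too few for a comparison.

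Esrrb (chr12:86361117-86521628, plus strand) was almost wholly Esrrb-203, of 454 amino acids, with 194 of 211 counts in rods (91.9%, 95% interval 87.4 to 95.2). Esrrb-201, of 433 amino acids, had 7 counts, all in rods, and an unannotated isoform 11. Over the 10 genes, 17 of 38 isoforms (44.7%, 28.6 to 61.7) were unannotated, where 63.5% of all 44325 isoforms were. This interval treats isoforms as independent draws, which isoforms of the same chosen genes are not. The unannotated isoforms held 3710 of 178226 counts (2.08%, 2.02 to 2.15), where those of the whole table held 6.35%. By structure, 6 combined annotated introns in a new way, 6 held a stretch of an annotated intron chain, 3 joined annotated splice sites by a new intron, 1 used a splice site outside the annotation and 1 had no model. The share was uneven between genes, from 0 counts in Nrl, Crx, Rorb and Neurod1 to 33.8% in Otx2, 76.7% in Thrb and 100% in Mef2d.

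Other genes of the same families were counted in the same way. Of 23 paralogs listed, 18 were measured, and 5 of the 18 were highest in rods or cones, near the 32.4% of all genes. Between rods and cones 5 of 16 were at least 2-fold higher (32% of all genes) and 3 lower (10.4%), with a median log2 ratio of 0.28, and between rods and bipolar cells 5 of 17 were higher (29%) and 7 lower (23.5%), with a median of -0.91. The 5 highest in rods or cones were Mef2a, Mef2b, Mef2c, Esrrg and Rxrb, among them Mef2c at 4.58 CPM in rods and 0.547 in cones, and Esrrg at 7.25 in cones and 1.80 in rods. Of the others, Neurod4 was at 122 CPM in bipolar cells and 4.44 in rods, Nr2e1 at 19.7 in Müller glia and 0.703 in rods, and Thra, the other thyroid hormone receptor gene, at 349 in amacrine cells and 20.0 in rods.

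Of 29 cofactors and regulators that act with or beside these factors, 25 were measured, and of 24 with at least 20 counts 8 were highest in rods or cones, near the 32.4% of all genes. Between rods and cones 8 of 18 were at least 2-fold higher (32% of all genes) and 3 lower (10.4%), with a median log2 ratio of 0.74. Between rods and bipolar cells 6 of 22 were higher (29%) and 11 lower (23.5%), with a median of -1.14. Samd11 and Samd7, partners in rod gene silencing, were at 170 and 40.5 CPM in rods and 11.6 and 9.58 in cones, and Casz1 at 106 and 34.9. Vsx1, a bipolar homeodomain factor, was at 19.3 CPM in bipolar cells and 2.13 in rods.

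Known target genes of these factors divided by class. All 15 rod targets were highest in rods, 13 of them at least 2-fold above cones with a median log2 ratio of 4.22 over the 15. All 12 cone targets were highest in cones, all 12 at least 2-fold below cones in rods, with a median of -5.68. These lists share genes with the class markers and were compiled from known photoreceptor biology, so their direction between rods and cones is a check of the columns.

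The genes most like each factor were the 3 others with at least 500 counts whose split of summed CPM over the 6 columns differed least, among 6581 genes; the distance is the summed excess of one split over the other, in percentage points. Gnb1, a rod transducin subunit, was nearest to Nrl (0.613 points) and to Nr2e3 (0.760). Nrl and Nr2e3 were 1.08 points from each other. Nearest to Crx was Cfap61 (1.71), to Rorb Faim (4.91), to Otx2 Csnk1g1 (5.45), to Neurod1 Lrit1 (5.83) and to Thrb Hspb6 (6.13). Mef2d was nearest to Krt18 (3.04), Rxrg to Mgst3 (7.56) and Esrrb to Cdr2 (9.26). The minimum of 500 counts was not applied to the factors themselves. Mef2d (128 counts), Esrrb (222) and Thrb (416) fell below it, so their distances are less exact. Of the 30 genes named by this measure, 5 were also named by Pearson distance of log2(CPM + 1).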

How the data were processed

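The authors deposited a table of whole-number counts per isoform in 6 cell-class columns and transcript models whose source field names FLAIR, per the file contents. The build is mm10, per the submitters' processing notes; how reads were counted, whether by molecule, how cells were typed and how doublets were treated is not given in the sources used here. The 6 columns name a class and no library, so each was taken as a pool; which of the 4 libraries entered it is not stated. No column was left out (0 unused). Counts of a gene's isoforms were summed and scaled to 1000000 per column (CPM). Classes were compared by rules of size: at least 2-fold with at least 20 counts in the pair of columns, and the switch rule. Models were compared with GENCODE M21 by their introns. Promoters are the 250 bases upstream of RefSeq starts (GRCm38.p6), matched for all 10 genes. The 10 genes and the lists were chosen with earlier results of these data known. All 10 are described; isoforms are named when the most abundant, at 10% or more in a class with at least 50 counts, or switched, and exons and splice groups with at least 20 counts on each side. Genes named from the lists were picked, after their values were seen, from those past 2-fold. Python 3.11.15, numpy 2.4.6, pandas 2.3.3, scipy 1.17.1 and matplotlib 3.10.9 were used, and the rules were tested on simulated data. Alternatives covered scaling, minimum counts, fold, annotated isoforms alone and the switch rule; the library leave-out was not possible. Results for some genes of the lists are not reported here.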

Additional observations from a re-analysis of the deposited data

Results flagged for a closer look

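Some reads at these loci are listed under other genes and entered none of the values above. Single-exon isoforms of Gm49154, on the same strand as Otx2 and overlapping its exons, held 115 counts, of which 111 were in rods, and 117 counts, of which 57 were in rods, 45 in bipolar cells and 15 in cones. A pair of Cerkl isoforms that share a splice site with Neurod1 held 30 counts (17 in cones, 7 in rods and 6 in bipolar cells) and 8 counts (5 in bipolar cells and 3 in rods). An Obox6 isoform that shares a splice site with Crx held 20 counts, all in rods. All 5 totals exceed 3 counts, the limit set by a 0.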

How the results depend on the processing

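Of 57 comparisons of a result with an alternative, 49 kept the result. At 4-fold in place of 2-fold, 1 gene in place of 2 was lower in rods than in cones, 3 in place of 6 were higher in cones than in bipolar cells, and 0 in place of 1 were lower there. Among isoforms with at least 100 counts, 18.2% in place of 44.7% were unannotated, and they held 1.85% of counts in place of 2.08%. With parts of annotated chains counted as annotated, 28.9% of isoforms were unannotated, a value still inside the interval of the 44.7%. The share of counts was then 1.85%, and without the rod column, chosen after seeing the data, it was 4.41%. The cause was not tested, beyond what these restrictions remove by construction. TMM or median-ratio scaling shifted every log2 ratio of rods to cones by -0.22 or -0.26 and of cones to bipolar cells by 0.13 or 0.17; 7 genes were then above 2-fold in cones over bipolar cells. With a minimum of 100 counts 2 of 5 genes were switched in place of 3 of 6. No paired analysis was possible because library is not recorded in the columns, and for the same reason leaving out a library was not run. Depth limits cones, Müller glia and ganglion cells most, and isoform shares there for Rorb, Thrb and Mef2d.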

Other observations

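A rare Nr2e3 isoform, with 24 of its 25 counts in rods, ends in an exon at chr9:59845649-59845815 (GRCm38, minus strand), reached by an intron of 101146 bases. That exon overlaps an exon of Gm20275 on the same strand, within the span of Myo9a on the other strand. A rare Otx2 isoform opening at chr14:48673652-48673899 held 21 counts, 20 of them in rods. Antisense to Mef2d, 1700113A16Rik held 16 counts, 9 in rods, 6 in amacrine cells and 1 in ganglion cells.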
